A study of Ovis aries with 5 samples.

Results

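Of 669 genes that could be named on the array, 15 encode cytosolic ribosomal proteins. They were read by 25 of its 15008 non-control probes, most of which have no gene symbol. A probe was taken when its gene name started with RPL or RPS and a digit, in either letter case, or when its description held the words ribosomal protein. The gene name gave 13 probes and the description 12, and 0 probes had to be set aside as mitochondrial ribosomal proteins or kinases. The large subunit was represented by 11 probes of 6 genes (RPL4, RPL6, RPL10, RPL13A, RPL14 and RPL35A). The small subunit was represented by 14 probes of 9 genes, among them RPS6, RPS12, RPS15, RPS15A, RPS20, RPS25, RPS26 and RPS27A. Each subunit was therefore seen through a small share of its proteins.

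Total RNA came from dendritic cells (DC), antigen-presenting cells that leave the skin and travel in lymph towards the lymph node. The cells were sorted as CD1b+ CD26+ or CD1b+ CD26- lymph DC from 2 sheep, numbered 30066 and 10081, and each sheep gave 1 array of each subset. CD26 is a surface peptidase, and CD1b is a lipid-presenting molecule. Each of the 4 sorted samples was labelled with Cy3 and hybridised against a Cy5 reference. The sample labels give that reference as total enriched lymph DC from sheep other than these 2, but the protocol for the labelling speaks of RNA from LP-1cl1, a cell line in culture. The fifth array was a self-hybridisation, with the labels' total DC reference in both dyes. No treatment, strain or age is given in the labels, and no array had its dyes swapped. Values are log2 ratios of Cy3 over Cy5 after background correction and loess normalisation within each array, and a difference of 1 on this scale is 2-fold.

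Ribosomal proteins assemble with ribosomal RNA into a small subunit, which decodes the messenger RNA, and a large subunit, which forms the peptide bond and releases the chain through an exit tunnel. Their messengers are among the most abundant of a cell, and many start with an oligopyrimidine tract through which growth signals regulate their translation. Dendritic cells are known to adjust protein synthesis as they mature.

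The sequences of the probes that carry the main results are given here because several of them read the same stretch of a messenger. All probes were 60 bases long. They are written 5′ to 3′ as the scanner files list them, with capitals for the run that all listed probes of the gene share and lower case elsewhere. No genome was used, so positions in the genome are not given. The probe pairs of RPS12 and RPS26, which had some of the lowest ratios, overlap by 52 and 59 bases, and the 3 probes of RPL10 share 42 bases. RPL6 and RPL35A had the lowest and the highest values of the large subunit against total DC once the self-hybridisation was taken off. RPS15A and RPS20 differed most between the subsets.
RPS12 probe 1: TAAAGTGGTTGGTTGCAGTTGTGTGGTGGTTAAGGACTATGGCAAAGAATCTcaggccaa
RPS12 probe 2: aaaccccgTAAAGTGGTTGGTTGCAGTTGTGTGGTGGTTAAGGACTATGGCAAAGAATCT
RPS26 probe 1: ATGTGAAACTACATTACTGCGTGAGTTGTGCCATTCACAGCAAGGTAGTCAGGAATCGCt
RPS26 probe 2: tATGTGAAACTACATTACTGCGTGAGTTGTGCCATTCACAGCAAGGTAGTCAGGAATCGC
RPL10 probe 1: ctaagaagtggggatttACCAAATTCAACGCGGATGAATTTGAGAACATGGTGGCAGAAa
RPL10 probe 2: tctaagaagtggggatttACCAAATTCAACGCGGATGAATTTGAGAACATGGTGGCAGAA
RPL10 probe 3: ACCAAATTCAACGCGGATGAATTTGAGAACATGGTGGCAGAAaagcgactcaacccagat
RPL6: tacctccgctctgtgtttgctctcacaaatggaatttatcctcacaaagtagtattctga
RPL35A: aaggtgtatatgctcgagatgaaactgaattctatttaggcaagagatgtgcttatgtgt
RPS15A: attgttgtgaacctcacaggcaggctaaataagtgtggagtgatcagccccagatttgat
RPS20: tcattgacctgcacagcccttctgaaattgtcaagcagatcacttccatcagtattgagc

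Of the 25 probes, 24 passed the filter on dim probes (Cy3 signal well over background on 2 or more of the 5 arrays) and were tested, and all 15 genes kept at least 1 probe. The probe left out was 1 of 2 built on an expressed sequence tag named rps15, and it was well above background on 0 of the 5 arrays. The other rps15 probe was well above background on 4 arrays, but it was read at 61 to 75 Cy3 units over a median local background of 36.5 to 39 units. The probes of the 14 other genes lay between percentiles 81.3 and 99.7 of brightness over the 13270 probes tested. The brightness of a probe was not read as the level of its gene, since probes differ in how well they bind. Where a gene had several probes, the brightest stood for it.

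Over the 5 arrays, 81.2% to 89.5% of probes were well above background in Cy3, and the SD of the log2 ratios over probes ranged from 1.18 to 1.42 on the sorted arrays, against 0.29 on the self-hybridisation. Of the 19 dendritic cell markers looked for, 4 had a probe. CD86, CD80 and CD40 were well above background on all arrays, and CD1B, the marker of the sort, on 1 of 5. Among T cell markers 6 of 12 had a probe, and 3 were well above background on all arrays. These 6 spanned -1.92 to 1.41 and -0.31 to 2.13 on the CD26- and CD26+ arrays of sheep 30066, and -2.53 to 4.11 and -1.45 to 3.18 on those of sheep 10081. The highest value on 3 of the 4 sorted arrays was that of CD3D, a chain of the T cell receptor complex. The lowest value on 3 of the 4 was that of CD247, another of these T cell markers, so the list went in both directions. Markers of B cells and of neutrophils had no probe.

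Other markers were set against the self-hybridisation, and some of them differed little from it. Of 7 cell cycle genes 2 had a probe, and both had lower values in both subsets of both sheep, with differences of -2.85 to -0.66 for PCNA and -2.11 to -0.18 for H2AZ1. Of 6 NK cell markers 2 had a probe. GNLY, a cytolytic protein, differed by -5.28, -2.21 and -1.88 on the 3 sorted arrays where it had a value, and TBX21 by -0.22 to -0.03. Of 8 monocyte and macrophage markers 4 had a probe. CHI3L1 had higher values on all 4 sorted arrays, by 1.53 to 2.72, CD14 differed by -1.77 to 0.10 and LYZ by -0.42 to 0.76, while FABP4 was well above background on 1 of 5 arrays. The 1 erythroid and 3 skin stroma markers with a probe differed by -0.38 to 1.15, the highest being VIM. The part of other cells and of cell division in the ribosomal protein values below was not tested. In sorted bulk RNA, fewer cells of a type and less RNA per cell cannot be told apart.

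On the self-hybridisation, where both dyes are labelled as the same RNA, 4 ribosomal protein genes lay well below 0. RPS12 stood at -1.23, RPS6 at -0.87, RPL4 at -0.51 and RPL10 at -0.42. The probes that stood for these genes were at percentile 99.3 or above of brightness over all tested probes. The other genes described below lay between -0.24 and 0.23. Each sorted array was therefore read as a difference from the self-hybridisation, which takes a constant offset of a probe between the dyes out. The CD26+ and CD26- comparisons with total DC share that 1 array, so its own error enters both.

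Against total DC, most ribosomal protein genes were lower in both subsets, though no single gene passed the test. All 4 sorted arrays were below the self-hybridisation for 11 of the 15 genes, beside 27.0% of all probes tested. These 11 include RPS15, whose dim probe differed by only -0.13 to -0.02. They also include RPS6 and RPS20, whose smallest differences were -0.07 and -0.014. RPL35A was the 1 gene above it on all 4, beside 23.5% of all probes. RPL6, RPS12 and RPS26 were at least 2-fold lower on all 4 arrays, as were 3.80% of all probes. Read without the self-hybridisation, the ratio was below 0 on all 4 sorted arrays for 10 of the 15 genes, beside 25.2% of all probes.

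In CD26+ cells, 12 genes were lower than total DC in both sheep, 2 were higher (RPL13A and RPL35A) and RPS15A was divided, where 38.8% of all probes were lower in both sheep, 34.3% higher and 26.9% divided. In CD26- cells, 13 were lower in both sheep, RPL35A was higher and RPL4 was divided, where 38.1% of all probes were lower, 33.9% higher and 28.0% divided. The 12 and the 13 lower genes each include RPS15, read by the dim probe. They also include differences near 0, for RPS20 in CD26+ cells of sheep 10081 (-0.014). In CD26- cells of sheep 30066, RPL13A and RPS6 were likewise near 0 (-0.005 and -0.07). The median difference over the 15 genes was -0.50 in CD26+ cells and -0.73 in CD26- cells. Over all tested probes it was -0.02 and -0.03. With array medians in place of loess, the median of all probes moved to -0.26 and -0.23, and that of the 15 genes to -0.85 and -1.08.

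With limma, 0 of 13210 probes (0%) had an adjusted p below 0.05 against the self-hybridisation in either subset. Unadjusted p-values below 0.05 were found for 1496 probes in CD26+ and 1402 in CD26- cells, among them 4 and 2 ribosomal protein probes. When the ratios were tested against 0, without the self-hybridisation, limma called 8.78% of all probes in CD26+ and 8.04% in CD26- cells. Among these were both RPS12 and both RPS26 probes in CD26+ cells, and RPL6 and RPS12 probe 1 in CD26- cells, all lower. That test leaves the offset between the dyes in the ratio, and RPS12 had the lowest value of the 15 genes on the self-hybridisation.

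**Figure D1:**
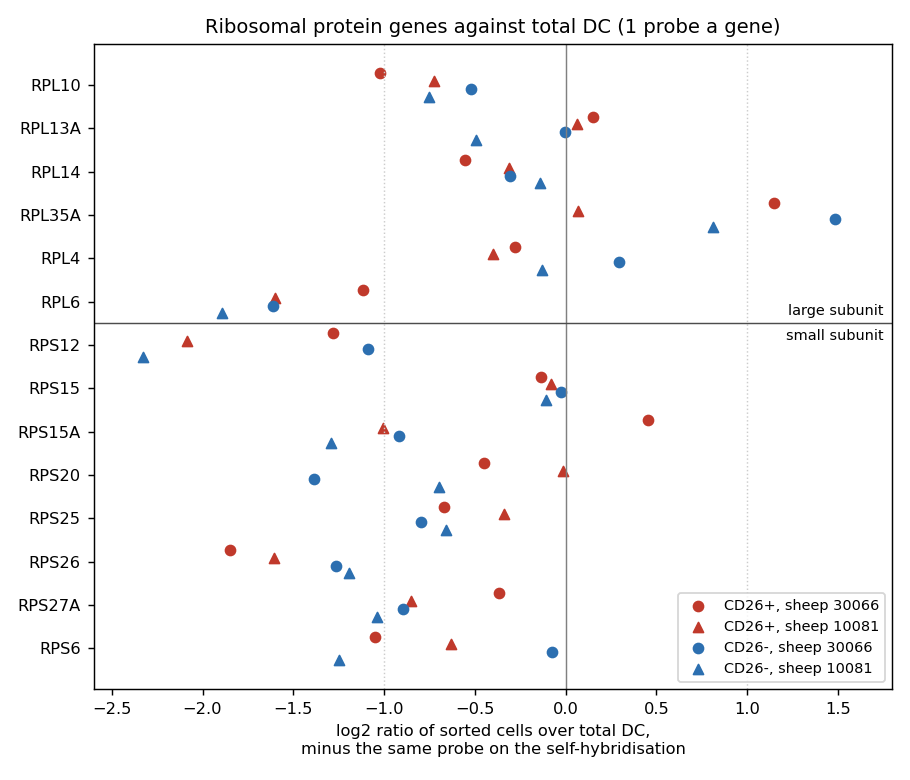
Log2 ratio of each ribosomal protein gene on the 4 sorted arrays minus its value on the self-hybridisation (x axis), 1 probe a gene for 14 genes, with large subunit genes above the line and small subunit genes under it. Colour gives the subset, shape the sheep and dotted lines 2-fold; all 4 points lie left of 0 for 10 of the 14 genes and right of it for RPL35A.

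RPS12, a protein at the edge of the head of the small subunit, had the lowest ratios of all 15 genes. They were -1.23 on the self-hybridisation, -2.32 and -2.52 in CD26- and CD26+ cells of sheep 30066, and -3.56 and -3.32 in those of sheep 10081. The 2 arrays of sheep 10081 were lower than the 2 of sheep 30066. The mean difference from the self-hybridisation was -1.71 in CD26- and -1.68 in CD26+ cells (SE 0.74 for each, 2 sheep a subset; limma adjusted p 0.54 and 0.49). In CD26- cells it was -1.09 without the array of sheep 10081.

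RPS26, which lies by the channel through which the messenger leaves the small subunit, was 0.23 on the self-hybridisation. Its ratio was -1.03 and -1.62 in CD26- and CD26+ cells of sheep 30066, and -0.96 and -1.37 in those of sheep 10081. All 4 sorted values were below the self-hybridisation, and in each sheep the CD26+ value was the lower one. The mean difference was -1.23 in CD26- and -1.73 in CD26+ cells (SE 0.42 for each; limma adjusted p 0.44 and 0.34).

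RPS6, the small subunit protein phosphorylated by the S6 kinases, was -0.87 on the self-hybridisation. In CD26- and CD26+ cells its ratio was -0.94 and -1.92 in sheep 30066, and -2.12 and -1.50 in sheep 10081. The CD26- array of sheep 30066 was close to the self-hybridisation and the other 3 sorted arrays were lower, with the subsets in opposite order in the 2 sheep.

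RPS25, which takes part in initiation at some internal entry sites, was -0.24 on the self-hybridisation, -1.03 and -0.91 in CD26- and CD26+ cells of sheep 30066, and -0.90 and -0.58 in those of sheep 10081. RPS27A, made as a fusion with ubiquitin, was -0.19 on the self-hybridisation, -1.08 and -0.56 in sheep 30066, and -1.23 and -1.04 in sheep 10081. Both genes were lower than the self-hybridisation on every sorted array, with mean differences of -0.61 to -0.50 in CD26+ and -0.97 to -0.73 in CD26- cells.

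RPS20, a protein of the head of the small subunit, was 0.22 on the self-hybridisation. In CD26- and CD26+ cells it was -1.17 and -0.23 in sheep 30066, and -0.48 and 0.20 in sheep 10081. RPS15A was 0.10 on the self-hybridisation, -0.82 and 0.56 in sheep 30066, and -1.19 and -0.91 in sheep 10081. Both genes were lower in CD26- than in CD26+ cells of the same sheep. RPS15A in CD26+ cells of sheep 30066 gave the 1 small subunit value of the set above the self-hybridisation. RPS15, read by the dim probe, was between 0.03 and 0.16 on the 5 arrays.

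In the large subunit, genes lay on both sides of total DC. RPL6 was 0.13 on the self-hybridisation, -1.48 and -0.99 in CD26- and CD26+ cells of sheep 30066, and -1.76 and -1.47 in those of sheep 10081. All 4 sorted values were at least 2-fold below the self-hybridisation, with a mean difference of -1.75 in CD26- and -1.36 in CD26+ cells (SE 0.47 for each; limma adjusted p 0.39 and 0.41).

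RPL35A, a protein that some families with Diamond-Blackfan anaemia carry in mutated form, was 0.03 on the self-hybridisation. It was 1.52 and 1.18 in CD26- and CD26+ cells of sheep 30066, and 0.85 and 0.10 in those of sheep 10081. The CD26+ array of sheep 10081 was close to the self-hybridisation and the other 3 were higher. The mean difference was 1.15 in CD26- and 0.61 in CD26+ cells (SE 0.67 for each; limma adjusted p 0.64 and 0.80), and 0.07 in CD26+ cells without the array of sheep 30066. A probe outside the set that shares 29 bases with the RPL35A probe read -0.04 on the self-hybridisation and 1.23, 0.95, 0.66 and 0.15 on the same sorted arrays in turn.

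RPL10, a protein that joins the large subunit late in its assembly, was -0.42 on the self-hybridisation. It was -0.94 and -1.44 in CD26- and CD26+ cells of sheep 30066, and -1.17 and -1.15 in those of sheep 10081. RPL14 was -0.11 on the self-hybridisation, -0.41 and -0.66 in sheep 30066, and -0.25 and -0.42 in sheep 10081. These genes were lower than the self-hybridisation on every sorted array, RPL14 by less than RPL10.

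RPL4, which helps to line the exit tunnel, was -0.51 on the self-hybridisation, -0.22 and -0.80 in CD26- and CD26+ cells of sheep 30066, and -0.64 and -0.92 in those of sheep 10081. RPL13A, which outside the ribosome takes part in an interferon-induced complex that silences inflammatory messengers, was 0.23 on the self-hybridisation, 0.22 and 0.38 in sheep 30066, and -0.27 and 0.29 in sheep 10081. The signs of the differences near 0 depended on the processing. RPL4 in CD26- cells had a mean difference of 0.08. Its sign changed with background fitted on all spots, with the scanner's processed signals and with array medians in place of loess. Read against 0, without the self-hybridisation, its mean ratio was -0.43, which leaves its offset between the dyes in. RPL13A in CD26+ cells went from 0.11 to -0.26 with array medians in place of loess.

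The subunits were set against each other on each array as the median over the large subunit genes minus that over the small subunit genes. On the self-hybridisation this was -0.14. It was 0.72 and 0.02 in CD26- and CD26+ cells of sheep 30066, and 0.50 and 0.24 in those of sheep 10081. With the self-hybridisation taken off each gene first, the values were 0.74 and 0.25 in sheep 30066, and 0.75 and 0.50 in sheep 10081. The large subunit median was thus above the small subunit median on all 4 sorted arrays, and by more in CD26- than in CD26+ cells of each sheep. On all 4 sorted arrays, 8 of 9 small subunit genes and 3 of 6 large subunit genes were below the self-hybridisation, beside the 27.0% of all probes given above. The 8 include RPS15, which was read by the dim probe, and RPS6 and RPS20, each with a sorted array close to the self-hybridisation.

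This gap rests on few genes, which are not replicates, and it was not tested. Taken from the mean differences over both sheep, it was 0.73 in CD26- cells, with 0.61 to 0.77 over the alternatives run. In CD26+ cells it was 0.22. There it turned to -0.020 with the scanner's own processed signals and to -0.20 when only the 8 genes found by gene name were used. It was 0.047 with ratios against 0 and 0.50 without the CD26+ array of sheep 30066.

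**Figure D2:**
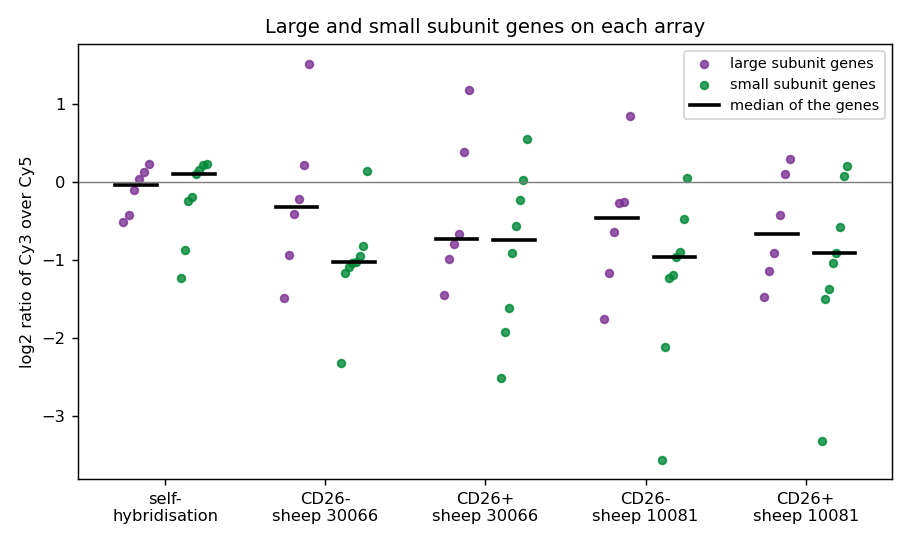
Log2 ratio of Cy3 over Cy5 (y axis) of 6 large and 8 small subunit genes on each of the 5 arrays, 1 point a gene, with the median of each subunit over its 6 or 9 genes as a black bar. The medians lie near 0 on the self-hybridisation (-0.04 and 0.10) and below 0 on the sorted arrays, and those of the small subunit are lowest in CD26- cells (-1.03 and -0.96).

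Between CD26+ and CD26- cells of the same sheep, the ribosomal protein genes had no common direction. Of the 15 genes, 6 had the higher ratio in the CD26+ cells of both sheep, 4 the lower one and 5 were divided, where 27.6%, 28.5% and 43.9% of all probes were. In both sheep, 14 of 15 genes differed by less than 2-fold, beside 63.8% of all probes, and the exception was RPS15A. The median difference was -0.04 over the 15 genes, -0.23 over the large subunit and 0.02 over the small subunit. Without the CD26- array of sheep 30066 it was 0.16 over the 15 genes, it was 0.18 over the 8 genes found by gene name, and the gap of large minus small subunit went from -0.25 to -0.57. With limma, 0 of 13270 probes (0%) were called, and 750 had an unadjusted p below 0.05, of which 0 were ribosomal protein probes. That fit, which also gave the SEs below, had no term for the sheep and so leaves the pairing of the subsets out. With the sheep as a block, limma called 0 probes and 1121 had an unadjusted p below 0.05.

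RPS15A was higher in CD26+ than in CD26- cells by 1.37 in sheep 30066 and by 0.29 in sheep 10081, with a mean of 0.83 (SE 0.61, limma adjusted p 0.98). Without the CD26+ array of sheep 30066 the difference was 0.10. RPS20 was higher by 0.94 and 0.68 in the same sheep, with a mean of 0.81 (SE 0.43, limma adjusted p 0.94), which was 0.47 without the CD26- array of sheep 30066 and 1.16 without that of sheep 10081. RPL6, RPL13A, RPS25 and RPS27A had the same direction in both sheep, with means of 0.22 to 0.39. When each array was left out in turn, these means ranged over 0.15 to 0.64, 0.11 to 0.60, 0.058 to 0.39 and 0.11 to 0.60.

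RPL35A differed between CD26+ and CD26- cells by -0.34 in sheep 30066 and -0.74 in sheep 10081, with a mean of -0.54 (SE 0.54). The mean was -1.08 and -0.0013 without the CD26+ array of sheep 30066 and of sheep 10081 in turn. RPS26 differed by -0.59 and -0.41, with a mean of -0.50 (SE 0.34, limma adjusted p 0.97). RPL4 and RPL14 were the other genes lower in both sheep, with means of -0.42 and -0.21. These ranged over -0.63 to -0.21 and -0.33 to -0.090 when each array was left out, and RPL4 was 0.0020 when its probe found by gene name stood for it.

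**Figure D3:**
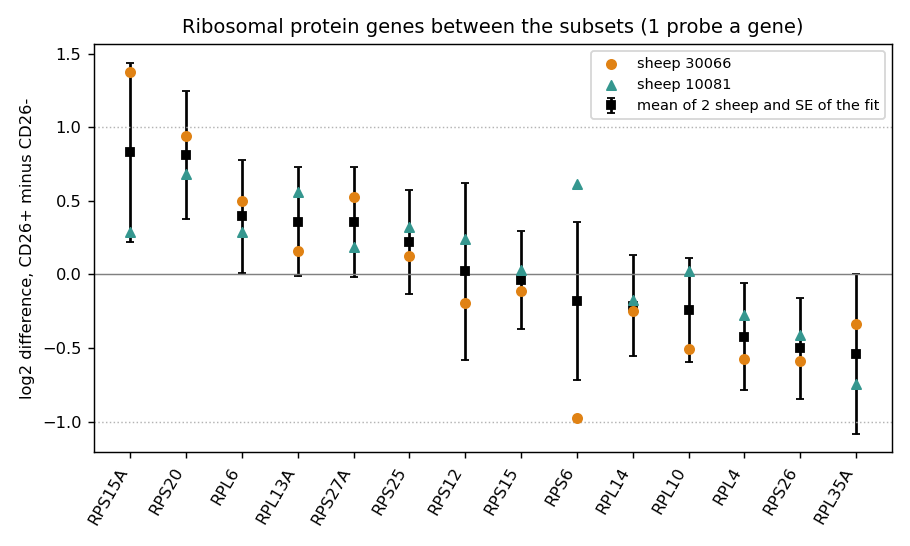
Difference in log2 ratio between CD26+ and CD26- cells (y axis) for 14 ribosomal protein genes, in order of the mean. Each sheep is a coloured point, and the mean with the SE of the fit is in black. The fit leaves the pairing by sheep out, so the SE is not the spread of the coloured points. Dotted lines mark 2-fold. RPS15A and RPS20 are highest (means 0.83 and 0.81), RPL35A and RPS26 lowest (-0.54 and -0.50), and RPS6 differs most between the sheep (-0.98 and 0.62).

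The probes of a gene gave close ratios where they overlapped. The 4 pairs shifted by 1 base, of RPL10, RPL14, RPS26 and RPS27A, differed by a median of 0.062 over 20 pairs of values, and 19 of these were under 0.25. The largest difference, 0.43, was between RPL10 probes 1 and 2 in CD26+ cells of sheep 30066. Over all 7 overlapping pairs the median difference was 0.084. RPS12 probe 2 followed probe 1 on the 4 arrays where it had a value, at -1.33, -2.58, -2.74 and -3.22, and its spot on the CD26- array of sheep 10081 was marked as an outlier by the scanner software.

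Probes on separate stretches of a messenger agreed less closely for RPL4. For RPL4 and RPS25 together the median difference over 20 pairs of values was 0.18, and the largest, 0.62, was in RPL4. The RPS25 probes differed by a median of 0.11 and at most by 0.14, no more than some overlapping pairs. In CD26+ against CD26- cells, RPL4 probe 1 gave -0.31 in sheep 30066 and 0.50 in sheep 10081, while probe 2 gave -0.57 and -0.27. RPL4 probe 3 was at -0.17 on both arrays of sheep 30066 and at -0.37 on both arrays of sheep 10081. The lower value of RPL4 in CD26+ cells thus rests on probe 2. A probe on the opposite strand to RPL4 probe 2, which shares 59 of its bases, was at -1.07 on the self-hybridisation and between -1.13 and -0.86 on the sorted arrays.

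**Figure D4:**
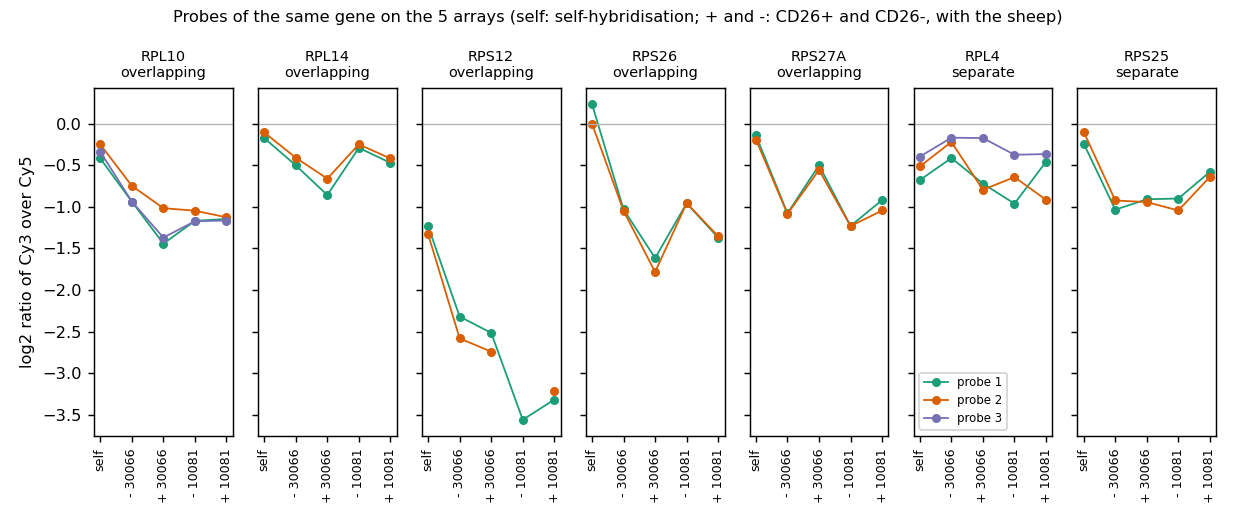
Log2 ratio of Cy3 over Cy5 (y axis) of every tested probe of the 7 genes with several tested probes on the 5 arrays (x axis), 1 line a probe. Overlapping probes follow each other closely, while the 3 separate probes of RPL4 cross; RPS12 probe 2 has no point on 1 array.

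Other genes of translation lay on both sides of total DC. Of 46 translation factors and related proteins looked for, 8 had a tested probe, and 0 were called by limma in any comparison. Against the self-hybridisation, 5 were higher in both sheep in each subset (EEF1A1, EIF3A, EIF4A2, EIF4G1 and PABPC1) and 3 were lower (EEF1D, RACK1 and TPT1). Of all probes, 34.3% in CD26+ and 33.9% in CD26- cells were higher in both sheep, and 38.8% and 38.1% were lower. Some differences were small, with EIF4A2 at 0.10 to 0.30 and EEF1D in CD26- cells at -0.05 and -0.005. The median difference of the 8 was 0.24 in each subset. Between the subsets, 2 had higher values in CD26+ cells of both sheep, 3 had lower ones and 3 were divided, beside 27.6%, 28.5% and 43.9% of all probes. Of 21 genes of ribosome assembly, 0 had a probe with that name.

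TPT1, a growth-related protein that binds an elongation factor, was -1.52 on the self-hybridisation, -1.99 and -2.86 in CD26- and CD26+ cells of sheep 30066, and -3.02 and -2.87 in those of sheep 10081. RACK1, a scaffold protein that sits on the small subunit, was -0.55 on the self-hybridisation, -0.85 and -1.15 in sheep 30066, and -1.10 and -1.42 in sheep 10081. EEF1A1, which brings aminoacylated transfer RNA to the ribosome, was -0.20 on the self-hybridisation, 0.99 and -0.04 in sheep 30066, and 0.94 and 0.22 in sheep 10081. TPT1 and RACK1 were lower than the self-hybridisation on every sorted array, while EEF1A1 was higher on every one. EEF1A1 was lower in CD26+ than in CD26- cells, with a mean difference of -0.87 (SE 0.34, limma adjusted p 0.88). Its values are those of the brightest of 5 tested probes, and the other probes are not given here.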

How the data were processed

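Deposited Feature Extraction 9.5.3.1 files of 5 Agilent 2-colour arrays were used. Per the file headers, the authors' files give mean spot intensity and local background per dye and a log10 ratio of processed signals. The deposited value table holds log2 ratios that equal those log10 ratios with the sign turned, within 5e-10 (column medians -0.0681 to 0.0152). Per the labels, 200 ng of RNA was amplified.

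Intensities were corrected with normexp (offset 50, fitted without spots whose local background was over 5 times the median) and normalised by loess within arrays, with 536 control spots left out, in limma 3.58.1 (R 4.3.3). The fit of group means over all 5 arrays had 2 residual degrees of freedom, and p-values were adjusted over all tested probes by Benjamini-Hochberg. This fit had no term for the sheep, so its SEs and p-values do not use the pairing of the subsets within a sheep. The number of arrays, 2 a subset, limits the precision. The fit was also run on simulated log ratios with known differences between CD26+ and CD26- cells, and the median estimates came close to them. The simulated errors had no correlation within a sheep. That run checks the median estimates only and not the calls, the background correction or the loess step.

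Values on every array were given for the 5 genes furthest in each direction in each comparison and for a list of well-known members, which took in nearly all genes. A few genes are counted with the others but not reported here by name. Members and lists were chosen with earlier results of these data known. Symbols came from the files and, for numbered loci, from a RefSeq table. Both subsets came from each sheep: deviations from group means of the same sheep correlated at r = 0.33 over 12881 probes. Arrays of sheep 30066 shared a slide row with the self-hybridisation, so row and sheep cannot be told apart.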

Additional observations from a re-analysis of the deposited data

Results flagged for a closer look

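For 5 of the 15 ribosomal protein genes, CD26+ minus CD26- had opposite signs in the 2 sheep. With 1 pair of arrays a sheep, the difference between the sheep was not tested, and 43.9% of all probes were divided in the same way. The difference in sheep 30066 minus that in sheep 10081 was -1.59 for RPS6 (-0.98 against 0.62), the largest of the 5. It was -0.53 for RPL10 (-0.51 against 0.02) and -0.44 for RPS12 (-0.20 against 0.24). For RPS15, read by a dim probe, it was -0.14.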

How the results depend on the processing

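No ribosomal protein probe was called in the comparisons as reported, so no call could reverse, but signs near 0 changed. Single-gene values changed sign for RPL4, RPL13A, RPS12 and RPS15 under other processing and for RPL4, RPS6, RPS12, RPS15 and RPS15A when an array was left out. Aquantile scaling cannot change a log ratio, and an array outside a comparison hardly bears on its value, so neither says anything about stability. With the sheep as a replicate block, CD26+ against CD26- kept 0 calls (smallest adjusted p of a ribosomal protein probe in limma 0.60). No paired analysis was possible for the comparisons with total DC because the self-hybridisation has no sheep. Counts over both sheep could not be given when 1 array was left out. Depth of signal limits RPS15 most.

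For CD26+ minus CD26-, the median, -0.04, was 0.18 by gene name alone and -0.13 to 0.16 when each array was left out. The large minus small subunit gap, -0.25, was -0.35 with the scanner's signals, -0.36 with genes found by gene name alone, -0.35 without the 2 rps15 probes, -0.12 with the mean over a gene's probes and -0.57 to -0.12 when each array was left out. The extremes came without the CD26- and without the CD26+ array of sheep 30066. By gene name alone, 1 of 8 genes was lower in both sheep.

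For CD26+ cells against total DC, 4 probes were called with ratios against 0. The median, -0.50, was -0.66 with the scanner's signals, -0.85 with array medians, -0.74 against 0, -0.33 by gene name alone, -0.59 with the mean over a gene's probes and -0.63 to -0.50 when each array was left out. By gene name alone 6 of 8 genes were lower in both sheep. The count of higher genes, 2, was 0 with the scanner's signals, 0 with array medians and 4 of 20 with further ribosomal protein probes added. The gap between subunits, 0.22, was -0.020 with the scanner's signals, 0.047 against 0, -0.20 by gene name alone, and 0.22 to 0.50 when each array was left out.

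For CD26- cells against total DC, 2 probes were called with ratios against 0. The median, -0.73, was -1.03 with the scanner's signals, -1.08 with array medians, -0.97 against 0, -0.44 by gene name alone, -0.80 without rps15, -0.81 with the mean over a gene's probes and -0.75 to -0.67 when each array was left out. By gene name alone 7 of 8 genes were lower in both sheep. The count of higher genes, 1, was 2 without background subtraction, 2 against 0 and 3 of 20 with further probes. The gap, 0.73, was 0.67 with background fitted on all spots, 0.63 with array medians, 0.72 with loess fitted without ribosomal protein probes, 0.61 against 0, 0.72 by gene name alone, 0.77 without rps15, 0.68 with further probes, 0.75 with the mean over a gene's probes and 0.73 to 0.75 when each array was left out. The alternatives without rps15 and with further probes were chosen after seeing the data. Using gene names alone leaves fewer genes; the cause of the other moves was not tested.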

Other observations

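The array held 8 further probes of 6 genes that encode ribosomal proteins under names the rule does not take, such as an old symbol or a locus number. RPL13, a large subunit protein listed under the old symbol BBC1, was -0.11 on the self-hybridisation, -0.95 and -1.82 in CD26- and CD26+ cells of sheep 30066, and -1.73 and -2.11 in those of sheep 10081. It was lower than the self-hybridisation on every sorted array, with mean differences of -1.24 in CD26- and -1.86 in CD26+ cells (SE 0.53 for each; limma adjusted p 0.54 and 0.37). RPSA, which is also known as a laminin receptor, lay between 0.32 and 0.65 on the 5 arrays.

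Some of these probes went against others of the same gene. The 2 probes built on a second sequence named OVRPS25 were higher than the self-hybridisation on all 4 sorted arrays, by means of 0.68 and 0.85 in CD26- and 1.19 and 1.46 in CD26+ cells. The RPS25 probes of the set were lower on all 4. The second pair was dim, at 85.3 to 317.95 Cy3 units, where the pair of the set was read at 3214 to 8518 units. The 2 probes of RPL34 differed in CD26+ cells of sheep 10081, at 0.62 and -0.62. RPL32 was well above background on 3 of 5 arrays. Its ratio was -0.0012 on the self-hybridisation, 0.36 and 1.77 in CD26- and CD26+ cells of sheep 30066, and 3.19 and 2.22 in those of sheep 10081. Every sorted array was thus higher, with mean differences of 1.78 in CD26- and 2.00 in CD26+ cells (SE 1.26 for each, limma adjusted p 0.71 and 0.62).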
